A study of Rattus norvegicus with 4 samples.

Results

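The genes described here carry sodium, chloride and water across the epithelium and vessels of the lung. They are the epithelial sodium channel subunits Scnn1a, Scnn1b and Scnn1g, the sodium pump subunit Atp1b1, the chloride channel Cftr and the aquaporins Aqp1, Aqp3, Aqp4 and Aqp5, chosen by their symbols as 9 of the 22050 genes listed. All 9 were found once in every library and all 9 passed the filter on low counts. Whole-lung mRNA came from 4 Sprague-Dawley rats, labelled SD, with 1 library per rat. The 2 bleomycin rats received 5 mg/kg of bleomycin, an antitumour antibiotic used to induce lung fibrosis, in a single intratracheal dose of 0.2 mL, and the 2 control rats the same volume of saline, with lungs taken on day 28. The labels give neither age nor sex.

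Alveolar fluid is cleared by moving sodium across the epithelium, with water following. Sodium enters the cell through the epithelial sodium channel (ENaC), assembled from alpha, beta and gamma subunits, and leaves it through the sodium pump, a catalytic alpha subunit with a beta subunit that carries it to the membrane. CFTR is a chloride and bicarbonate channel, and aquaporins are water channels, of which Aqp5 is known from alveolar type 1 cells, Aqp1 from endothelium and red cells, Aqp3 from basal cells of the airway and Aqp4 from airway epithelium.

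The ENaC genes and Aqp5 fell and Cftr rose in bleomycin lungs, while Atp1b1, Aqp1, Aqp3 and Aqp4 were not called. Scnn1g was 3.74-fold lower, Aqp5 2.61-fold lower, Scnn1a 2.30-fold lower and Scnn1b 1.99-fold lower, and Cftr was 2.62-fold higher. Thus 1 of the 9 rose and 4 fell in edgeR's quasi-likelihood test, at a threshold of 0.05 on p-values that were Benjamini-Hochberg adjusted over the 15709 genes tested. Over all tested genes 17.0% were called, 9.26% higher and 7.79% lower. Both bleomycin values lay above both controls for 2 of the 9 genes and below them for 5, as they did for 35.1% and 33.4% of all tested genes. The median log2 change was -0.90 for the 9 genes and 0.01 for all tested genes. The 5 calls need both controls, as do nearly all calls over the tested genes. Without control replicate 1 or without control replicate 2 none of the 5 passed, although each kept its direction, and the edgeR adjusted p then lay between 0.0724 and 0.157. In those fits the spread comes from the bleomycin pair alone and the lone control is assumed to vary like it.

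**Figure D1:**
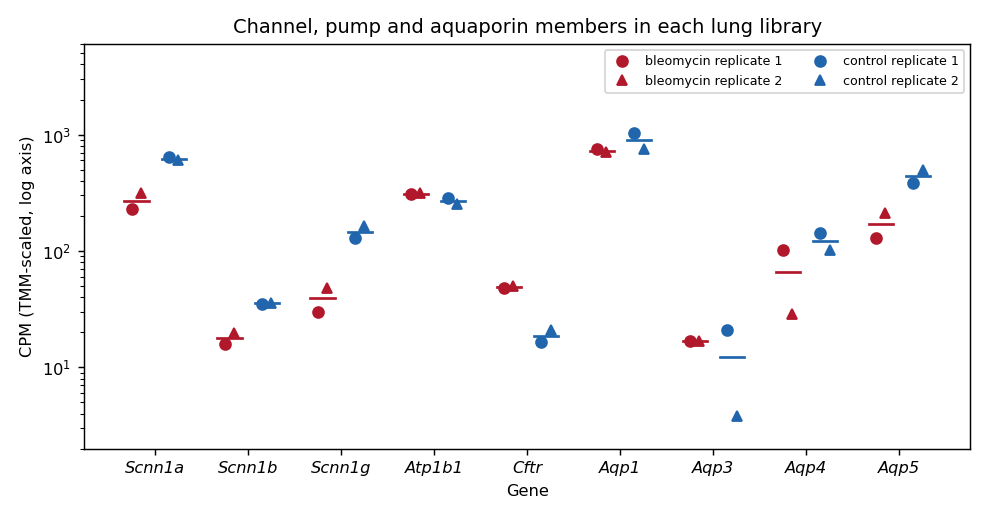
CPM (counts scaled to library size with TMM factors, log axis) of the 9 genes in each library, with a symbol per library and a bar at each group's mean. Both bleomycin libraries lie below both controls for Scnn1a, Scnn1b, Scnn1g, Aqp1 and Aqp5 and above them for Atp1b1 and Cftr, while for Aqp3 and Aqp4 the groups overlap.

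The libraries held 39168063 and 44381111 counts in bleomycin replicates 1 and 2 and 34683699 and 43533928 in control replicates 1 and 2. At these depths the weakest value among the 9 genes, that of Aqp3 in control replicate 2, rested on 166 counts. Markers of lung epithelium were abundant in every library, with the alveolar type 2 gene Sftpc between 6823 and 15438 CPM and the alveolar type 1 gene Ager between 763 and 2544 CPM. Bleomycin replicate 1 lay farther from the controls than bleomycin replicate 2 for each of the 4 genes that fell. In whole lung, fewer cells of a type and less RNA per cell cannot be told apart.

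The upstream sequences of the called genes are shown because the subunit genes and Aqp5 fell together while Cftr rose. RefSeq promoter windows of the GRCr8 assembly, which is not the build of the files, were found once for 6 of the 9 genes. The 250 bases before the start are shown for the 4 called genes among them, 5′ to 3′ on the gene's strand, which is the plus strand in each. Capitals mark matches to GGGCGG (the GC box) or CTCAAG (a core bound by the lung factor NKX2-1), on either strand.
Scnn1b, chr1:185861126-185861375: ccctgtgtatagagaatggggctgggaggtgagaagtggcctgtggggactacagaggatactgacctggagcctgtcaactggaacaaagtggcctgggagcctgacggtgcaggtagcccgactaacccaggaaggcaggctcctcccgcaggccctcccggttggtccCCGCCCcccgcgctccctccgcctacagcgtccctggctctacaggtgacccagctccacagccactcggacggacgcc
Scnn1g, chr1:185735975-185736224: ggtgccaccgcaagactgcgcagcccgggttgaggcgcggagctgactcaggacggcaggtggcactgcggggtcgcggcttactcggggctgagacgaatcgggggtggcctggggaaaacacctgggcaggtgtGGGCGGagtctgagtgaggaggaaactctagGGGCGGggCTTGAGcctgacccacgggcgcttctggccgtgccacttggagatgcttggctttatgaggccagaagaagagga
Aqp5, chr7:132601278-132601527: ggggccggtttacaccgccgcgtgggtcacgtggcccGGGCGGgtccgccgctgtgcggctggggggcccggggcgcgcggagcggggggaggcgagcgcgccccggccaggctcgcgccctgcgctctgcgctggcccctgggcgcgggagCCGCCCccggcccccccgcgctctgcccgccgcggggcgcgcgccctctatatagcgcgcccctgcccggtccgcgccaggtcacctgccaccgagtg
Cftr, chr4:47527379-47527628: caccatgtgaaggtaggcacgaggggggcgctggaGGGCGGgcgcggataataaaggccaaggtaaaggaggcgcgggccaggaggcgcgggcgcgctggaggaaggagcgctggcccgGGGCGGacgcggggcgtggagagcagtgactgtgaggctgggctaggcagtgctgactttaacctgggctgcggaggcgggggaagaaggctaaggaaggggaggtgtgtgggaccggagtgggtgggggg
Each of the 4 windows holds at least 1 GC box, as do those of Aqp1 and Aqp3, which were not called. Of all 33465 windows of this length 30.5% hold a GC box. The 3 genes that fell do not differ from Cftr in this. Scnn1g holds the CTCAAG core, which 13.4% of all windows hold. None of the 4 holds TATAAA (the TATA box, 12.9% of all windows), AGAACA (a core of the glucocorticoid receptor element, 17.5%) or TGACGTCA (the cyclic AMP response element, 1.59%). The windows of Aqp1 and Aqp3, which are not shown, do hold TATAAA. No match overlaps another. The Aqp5 window stands out by composition, with 83.2% G and C and 41 CpG, against medians of 51.2% and 5 over all windows. The windows of Scnn1b, Scnn1g and Cftr have 65.6%, 65.6% and 69.2% G and C.

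Scnn1a (ENSRNOG00000019368), the alpha subunit that ENaC needs to conduct, had 227.5 and 312 CPM in bleomycin replicates 1 and 2 and 639 and 604 CPM in control replicates 1 and 2. Its log2 change was -1.20 ± 0.18 (SE derived from the test, edgeR adjusted p = 0.0196). Both bleomycin values lay below both controls. Scnn1b (ENSRNOG00000030981), the beta subunit, had 15.9 and 19.7 CPM in bleomycin lungs and 35.3 and 35.5 CPM in control lungs and a log2 fold change of -0.99 ± 0.14 (edgeR adjusted p = 0.0187). Scnn1g (ENSRNOG00000017842), the gamma subunit, had 30.2 and 48.2 CPM in bleomycin lungs and 129 and 164 CPM in control lungs and a log2 fold change of -1.90 ± 0.26 (edgeR adjusted p = 0.0173). None of the 3 subunits overlapped between the groups, in a data set where 68.5% of tested genes do not overlap.

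The fitted falls of the subunits differed in size, but the subunits were not tested against each other. Levels of different genes are compared here in the deposited FPKM, which divide by gene length. Scnn1a was the most abundant subunit in every library and Scnn1b the least. Scnn1a averaged 80.0 ± 17.0 FPKM in bleomycin lungs and 184 ± 6.5 FPKM in control lungs (SD, n = 2 each). Scnn1g averaged 12.8 ± 4.04 and 48.1 ± 8.4 FPKM, and Scnn1b 6.42 ± 0.88 and 12.8 ± 0.13 FPKM, in bleomycin and control lungs. Scnn1g made up 11.9% and 13.7% of the ENaC FPKM in bleomycin replicates 1 and 2 and 17.3% and 21.9% in control replicates 1 and 2. Per unit of Scnn1a FPKM there were 0.147 and 0.171 of Scnn1g in bleomycin lungs and 0.223 and 0.301 in control lungs, so that gamma was lower relative to alpha in both. For beta the ratio was 0.0853 and 0.0766 in bleomycin lungs and 0.0672 and 0.0717 in control lungs. With 2 libraries a group an exact two-sided permutation test of such a ratio cannot give a p below 0.333, so the ratios are values with no call.

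**Figure D2:**
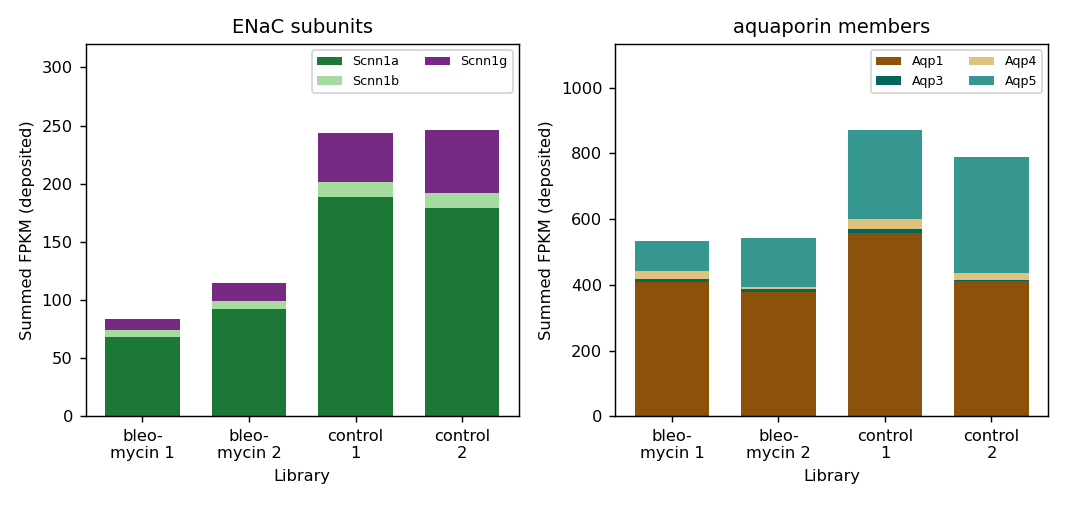
Deposited FPKM of the ENaC subunits (left) and of the 4 aquaporins (right), stacked in each library, on axes from 0. The ENaC sum is 83.8 and 115 FPKM in bleomycin libraries against 243.5 and 246 FPKM in controls, and the aquaporin sum 533 and 541 FPKM against 871 and 788 FPKM.

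In the RefSeq annotation of GRCr8 Scnn1g and Scnn1b are neighbours on the same chromosome, and both fell. The genes on their outer sides were not called: the log2 change was -0.01 ± 0.26 for Usp31 beside Scnn1g, and for Cog7 beside Scnn1b it was -0.33 ± 0.10 (edgeR adjusted p = 0.0826). Scnn1a lies between Ltbr, which was not called, and Tnfrsf1a, a tumour necrosis factor receptor gene, which rose by 0.55 ± 0.12 on the log2 scale (edgeR adjusted p = 0.0402). Its call was lost without control replicate 1 (edgeR adjusted p = 0.271) and without control replicate 2 (edgeR adjusted p = 0.236).

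Cftr (ENSRNOG00000055103) had 48.4 and 50.3 CPM in bleomycin lungs and 16.5 and 21.0 CPM in control lungs, with a log2 fold change of 1.39 ± 0.15 (edgeR adjusted p = 0.0128). The bleomycin pair lay close together and above both controls. In FPKM Cftr stayed a weak gene, at 7.22 ± 0.13 in bleomycin lungs and 2.75 ± 0.47 in control lungs (SD, n = 2 each). Per unit of Scnn1a FPKM there were 0.105 and 0.0795 of Cftr in bleomycin lungs and 0.0128 and 0.0172 in control lungs. Airway ionocytes are a cell type known for high Cftr. Their defining markers were at or near 0, with Bsnd at 0 in all 4 libraries and the ionocyte factor Foxi1 at 0 in 3 libraries and 0.159 CPM in bleomycin replicate 2. Of 4 ionocyte markers found only Atp6v0d2, a proton pump subunit that macrophages also express, could be tested, and it rose. The summed ionocyte markers were 10.9 and 5.17 CPM in bleomycin lungs and 0.463 and 0.802 CPM in control lungs. In the bleomycin lungs nearly all of this sum was Atp6v0d2. Among other epithelial markers, 2 of 7 basal and squamous markers rose and none fell. Of 6 club and secretory markers 1 rose and 2 fell. Of 3 tested submucosal gland and serous markers none rose and 1 fell, and of 6 tested ciliated markers none rose and 4 fell. Of 5 markers of epithelium as a whole 1 rose and none fell. Over all tested genes 9.26% rose and 7.79% fell. The part of cell content in the Cftr change was not tested.

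Of 14 other genes of chloride, bicarbonate, proton and cotransport that could be tested, 1 rose and 1 fell. These are 14.3% of the list, near the 17.0% called over all tested genes. The median log2 change of the list was 0.26. Slc26a4, which encodes the anion exchanger pendrin of airway epithelium, had 118 and 66.2 CPM in bleomycin lungs and 2.35 and 1.97 CPM in control lungs. It was 42.8-fold higher (log2 change 5.42 ± 0.36, edgeR adjusted p = 0.00885). In FPKM pendrin was below Cftr in control lungs and above it in bleomycin lungs, with 5.16 and 2.79 of Slc26a4 per unit of Cftr in bleomycin replicates 1 and 2 and 0.299 and 0.198 in control replicates 1 and 2. Slc26a3, an anion exchanger best known from the colon, had 1.04 and 0.182 CPM in bleomycin lungs and 3.10 and 6.37 CPM in control lungs, 8.14-fold lower (edgeR adjusted p = 0.0447). That fold was 26.7 without bleomycin replicate 1, 4.71 without bleomycin replicate 2 (edgeR adjusted p = 0.0626) and 5.21 without control replicate 2. A lncRNA locus overlaps Slc26a4 in RefSeq. No strand-marking step is described for these libraries, so reads of overlapping genes may not have been told apart.

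Atp1b1 (ENSRNOG00000002934), the main beta subunit of the sodium pump, had 307 and 313 CPM in bleomycin lungs and 287 and 255 CPM in control lungs. The log2 change of 0.19 ± 0.11 did not pass (edgeR adjusted p = 0.277). Its RefSeq locus overlaps Nme7, whose log2 change of -0.18 ± 0.14 did not pass either. In FPKM Atp1b1 averaged 200 ± 0.52 in bleomycin lungs and 174 ± 14 in control lungs (SD, n = 2 each), so that it lay above Scnn1a in both bleomycin lungs and close to it in the controls.

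Several other pump genes were called, unlike Atp1b1. Of 12 tested subunits and FXYD regulators (small membrane proteins that tune the pump) 5 rose and 1 fell, with a median log2 change of 0.53. That is 50% of the list, against 17.0% of all tested genes. Fxyd5, also called dysadherin, had 93.0 and 74.0 CPM in bleomycin lungs and 38.2 and 36.4 CPM in control lungs (2.24-fold higher, edgeR adjusted p = 0.0143). Fxyd2, the gamma subunit of the kidney pump, was 2.82-fold higher, and Atp1b2, another beta subunit, 2.14-fold higher. Fxyd3 was 1.59-fold higher and lost its call without bleomycin replicate 1 (edgeR adjusted p = 0.0533). Fxyd4 was 7.33-fold higher at 1.04 and 1.57 CPM in bleomycin lungs and 0.174 and 0.183 CPM in control lungs, and it lost its call without bleomycin replicate 2 (edgeR adjusted p = 0.0595). In RefSeq, Fxyd3 overlaps Lgi4.

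Aqp5 (ENSRNOG00000051970) had 129 and 211 CPM in bleomycin lungs and 387 and 501 CPM in control lungs. Its log2 change was -1.38 ± 0.27 (edgeR adjusted p = 0.0316), and all bleomycin values lay below all controls. Aqp1 (ENSRNOG00000011648) had 748 and 702 CPM in bleomycin lungs and 1033 and 756 CPM in control lungs. The groups did not overlap, but control replicate 2 was close to the bleomycin pair, and the log2 change of -0.30 ± 0.18 did not pass (edgeR adjusted p = 0.285). In FPKM the order of the aquaporins was Aqp1, Aqp5, Aqp4 and Aqp3 in every library but bleomycin replicate 2, where Aqp3 stood above Aqp4. In bleomycin lungs Aqp1 had 394 ± 22 FPKM and Aqp5 119 ± 39 FPKM, and in control lungs Aqp1 had 484 ± 104 FPKM and Aqp5 311 ± 58 FPKM (SD, n = 2 each), so the 2 genes stood well apart in bleomycin lungs and nearer to each other in controls. Aqp5 was 17.2% and 27.2% of the aquaporin FPKM in bleomycin replicates 1 and 2 and 31.0% and 44.7% in control replicates 1 and 2.

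Aqp4 (ENSRNOG00000016043) was uneven among the bleomycin lungs, with 102 and 28.7 CPM in bleomycin replicates 1 and 2 and 143 and 102 CPM in control replicates 1 and 2. Bleomycin replicate 1 and control replicate 2 had nearly the same value, so the groups overlapped, and the log2 change of -0.90 ± 0.58 did not pass (edgeR adjusted p = 0.311). Without bleomycin replicate 1 Aqp4 was called lower, at a log2 fold change of -2.09 (edgeR adjusted p = 0.0272), and without bleomycin replicate 2 the change was -0.27 (edgeR adjusted p = 0.44). The 6 tested markers of ciliated cells, another airway cell type, were lower in both bleomycin lungs, as were 33.4% of all tested genes. They fell in 4 cases, against 7.79% of all tested genes. Their summed level, at 206 and 298 CPM in bleomycin lungs and 650 and 580 CPM in control lungs, was not lower in the bleomycin lung with little Aqp4. Of 6 club and secretory markers, also of the airway, 5 were lower in bleomycin replicate 2 than in bleomycin replicate 1, as Aqp4 was. Scgb3a2 of that list had 125 and 38.8 CPM, Cyp2f4 36.1 and 9.42 CPM and Muc5b 267 and 75.2 CPM in bleomycin replicates 1 and 2. The exception was Scgb1a1, the main club cell secretory protein gene, at 1768 and 2181 CPM. The part of airway content in the Aqp4 values was not tested.

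Aqp3 (ENSRNOG00000009797), which passes glycerol as well as water, was uneven among the controls. It had 16.8 and 16.8 CPM in bleomycin replicates 1 and 2 and 20.9 and 3.80 CPM in control replicates 1 and 2. The bleomycin values lay between the controls, which differed 5.49-fold, and the log2 change of 0.47 ± 0.70 did not pass (edgeR adjusted p = 0.662). It was 2.13 without control replicate 1 (edgeR adjusted p = 0.0744) and -0.31 without control replicate 2. Heart muscle markers, summed over 6 genes, also differed between the controls, at 162 CPM in control replicate 1 and 37.0 CPM in control replicate 2, with 112 and 61.9 CPM in bleomycin replicates 1 and 2. The summed basal and squamous markers did not follow Aqp3, at 168 and 49.8 CPM in bleomycin lungs and 27.4 and 27.8 CPM in control lungs. In control replicates 1 and 2 Krt15 of that list had 18.2 and 11.2 CPM, but Krt14 had 3.94 and 9.51 CPM. Of the club and secretory markers Scgb3a1 (127 and 45.4 CPM) and Muc5b (55.6 and 25.8 CPM) were lower in control replicate 2. Scgb1a1, Scgb3a2, Cyp2f4 and Bpifb1 were not. The part of heart tissue or of airway content in the Aqp3 difference was not tested.

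**Figure D3:**
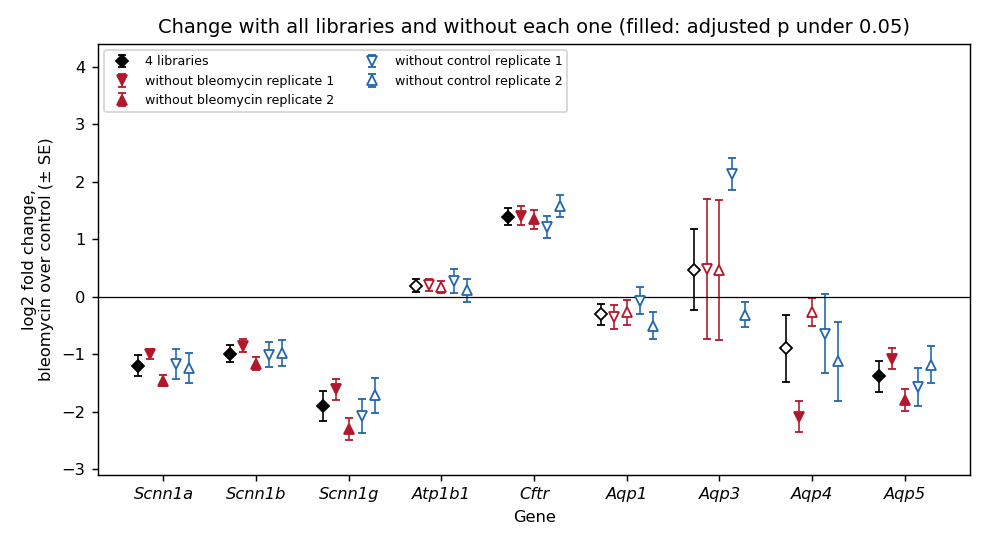
Log2 fold change, bleomycin over control, of the 9 genes with all 4 libraries (diamonds) and without each library in turn (triangles), with bars for the SE and filled symbols for an adjusted p under 0.05. Scnn1a, Scnn1b, Scnn1g and Aqp5 stay below 0 and Cftr above 0 in every fit, while Aqp3 runs from -0.31 to 2.13 and Aqp4 from -2.09 to -0.27.

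Among other aquaporins 4 of 8 could be tested, and 1 rose, where 9.26% of all tested genes rose. Aqp12a had 0.887 and 1.04 CPM in bleomycin lungs and 0 and 0.160 CPM in control lungs (edgeR adjusted p = 0.0462). It lost its call without either bleomycin library (edgeR adjusted p = 0.0731 and 0.0701). Aqp9, a channel for water and glycerol known from leukocytes and liver, had 6.36 and 2.61 CPM in bleomycin lungs and 1.94 and 1.54 CPM in control lungs and did not pass (edgeR adjusted p = 0.122). Aqp2 and Aqp6, which flank Aqp5 in the GRCr8 annotation, had at most 0.145 CPM in any library, and Aqp7, beside Aqp3, at most 0.405 CPM. The 0.405 CPM of Aqp7 was 14 counts in control replicate 1, and Aqp7 was at 0 in the other libraries. In these libraries 3 counts make 0.0676 to 0.0865 CPM.

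On the list of hormone receptors, kinases and ubiquitin ligases that control ENaC and the pump, genes fell or did not pass. Of 13 tested 4 fell and none rose, and the median log2 change was -0.50. That is 30.8% of the list, against 17.0% of all tested genes. Nr3c2, the mineralocorticoid receptor through which aldosterone raises ENaC, had 4.79 and 5.90 CPM in bleomycin lungs and 17.1 and 17.6 CPM in control lungs (3.24-fold lower, edgeR adjusted p = 0.0121). Adrb1, a receptor for adrenaline and noradrenaline, was 2.28-fold lower (edgeR adjusted p = 0.0444). Nedd4l, the ubiquitin ligase that removes ENaC from the membrane and so opposes the receptors, was also lower, 1.97-fold (edgeR adjusted p = 0.0330). Sgk1, the kinase that restrains Nedd4l, named after its values were seen, had 155 and 295 CPM in bleomycin lungs and 128 and 129 CPM in control lungs and did not pass (edgeR adjusted p = 0.121). RefSeq lists lncRNA or pseudogene loci that overlap Nr3c2 and Nedd4l.

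Of 10 proteases that cleave ENaC and their inhibitors, 1 rose and none fell, with a median log2 change of 0.37. That is 10% of the list, against 17.0% of all tested genes. The one that rose was Serpine2, protease nexin 1, a serine protease inhibitor, at 247 and 132 CPM in bleomycin lungs and 42.7 and 33.1 CPM in control lungs (5.01-fold higher, edgeR adjusted p = 0.0187). St14, the membrane protease matriptase, differed by 0.46 ± 0.12 on the log2 scale (edgeR adjusted p = 0.0585). Prss8, the channel-activating protease prostasin, named after its values were seen, differed by -0.32 ± 0.17 (edgeR adjusted p = 0.240).

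Among 10 tested potassium and other cation channels and cotransporters 1 rose and 2 fell, with a median log2 change of -0.66. That is 30% of the list, against 17.0% of all tested genes. Slc5a1, which takes up sodium with glucose, had 0.811 and 1.11 CPM in bleomycin lungs and 22.0 and 34.6 CPM in control lungs (log2 change -4.87 ± 0.34, edgeR adjusted p = 0.00885), and it was the one called gene of these lists that also passed without either control. Asic1, an acid-sensing sodium channel of the ENaC family, was 2.33-fold lower (edgeR adjusted p = 0.0286). Kcnn4, a calcium-activated potassium channel of epithelia and leukocytes, was 3.60-fold higher (edgeR adjusted p = 0.0354), or 2.36-fold without bleomycin replicate 1. Over the 6 lists of partner genes together 9 of 63 tested rose and 8 fell, with a median log2 change of 0.13, and 16 of the 17 calls did not pass without control replicate 1.

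**Figure D4:**
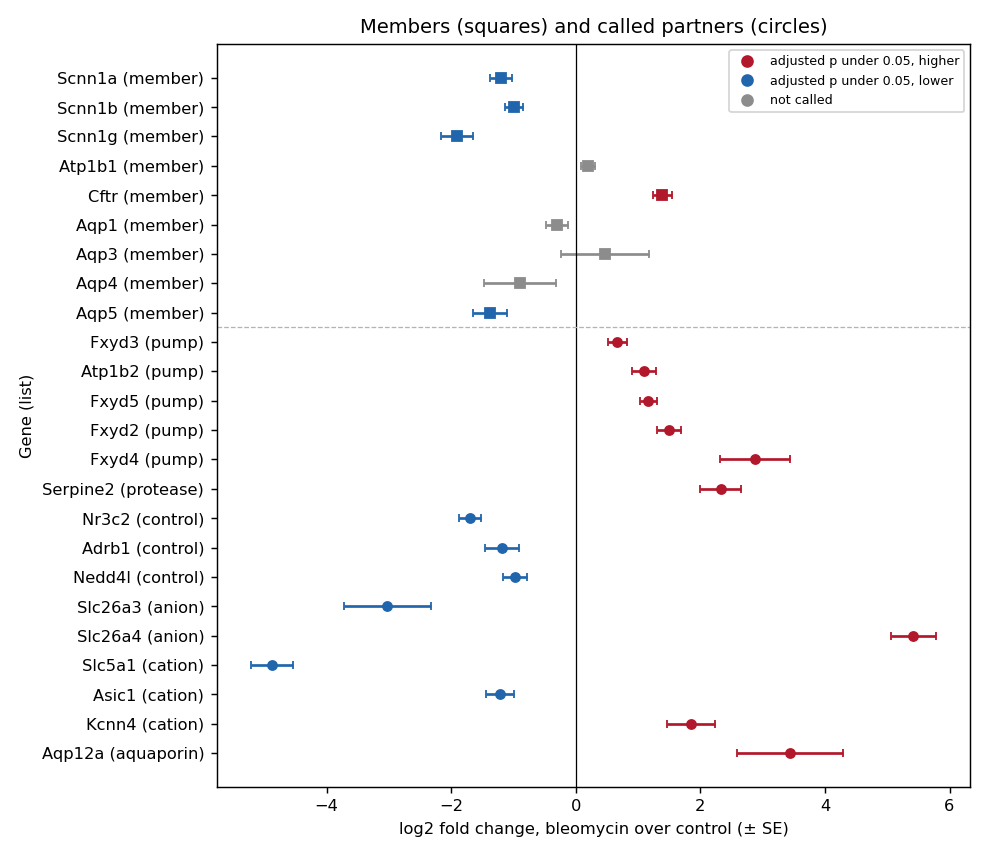
Log2 fold change, bleomycin over control, with SE, of the 9 genes (squares) and of 15 partner genes that were called (circles), in the order of their lists. The ENaC subunits and Aqp5 lie left of 0 with Nr3c2, Adrb1, Nedd4l and Slc5a1, and Cftr lies right of 0 with Slc26a4, Serpine2 and the called pump genes shown.

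Markers of alveolar type 1 cells moved with the ENaC genes and Aqp5. Of 8 such markers 6 fell and none rose, where 7.79% of all tested genes fell and 9.26% rose. Their summed level was 3375 and 4935 CPM in bleomycin lungs and 8013 and 8615 CPM in control lungs. None of them was at 0 in any library. The FPKM ratio of a gene to such a marker depended on the marker, since the markers fell unequally. For Aqp5 the bleomycin ratios lay below both controls against 5 of the 8 markers, above them against Rtkn2, and overlapped them against Ager and Clic5. Per unit of Ager there were 0.129 and 0.144 FPKM of Aqp5 in bleomycin lungs and 0.130 and 0.150 in control lungs, and per unit of Hopx 0.293 and 0.387 in bleomycin lungs and 0.417 and 0.541 in control lungs. Scnn1a gave the same counts, with the overlap again against Ager and Clic5. Scnn1b ratios lay below the controls against 4 markers, above them against 2 and overlapped them against 2. Scnn1g ratios lay below both controls against 7 of the 8 markers and overlapped them against Rtkn2. Of 9 alveolar type 2 markers none was called, and their sum was 19467 and 31329 CPM in bleomycin lungs and 33110 and 33180 CPM in control lungs. The fall was not particular to type 1 markers. Of 6 tested ciliated markers 4 fell and none rose, and of 9 tested endothelial markers 5 fell and 1 rose. Of 6 club and secretory markers 2 fell and 1 rose. Of 5 markers of epithelium as a whole none fell and 1, Krt18, rose. Ratios of the 4 genes to markers of these other cells were not computed. The part of cell content in the changes of the 4 genes was not tested.

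Most tested markers of endothelium and of red cells, cells that both express Aqp1, fell in bleomycin lungs. Over all tested genes 7.79% fell and 9.26% rose. Of 9 tested endothelial markers 5 fell and 1 rose, with a sum of 2206 and 2893 CPM in bleomycin lungs and 5544 and 4906 CPM in control lungs. Of these markers Cldn5 was at 0 in bleomycin replicate 1, and it was not called. Of 5 tested red cell markers 3 fell. The 5 summed to 1087 and 1255 CPM in bleomycin lungs and 2541 and 1841 CPM in control lungs. Control replicate 1 was the highest in this sum, made up mostly of the haemoglobin genes Hbb and Hba-a2, as it was in Aqp1. Slc4a1 and Epb42 were not called, and Slc4a1 was highest in bleomycin replicate 2, at 6.56 CPM. Set in FPKM against the 8 endothelial markers that were above 0 in every library, Aqp1 was higher in both bleomycin lungs than in both controls for 5, overlapped for Tie1 and Esam, and was lower for Egfl7. Per unit of Vwf, von Willebrand factor, there were 4.93 and 4.17 of Aqp1 in bleomycin lungs and 3.03 and 2.46 in control lungs, and per unit of Egfl7 2.21 and 2.41 in bleomycin lungs and 4.80 and 3.77 in control lungs. The part of these cells in the Aqp1 values was not tested.

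Among the 9 genes Scnn1a and Scnn1b had the most similar course over the 4 libraries, with a Euclidean distance of 0.273 between their log2(CPM + 0.5) values after subtracting each gene's mean. Aqp5 was nearest to Scnn1a among the 9, at 0.414. The nearest gene was sought over all tested genes with an assigned symbol, which are many for 4 libraries. It was Casz1 for Scnn1a (0.0241), Rnf145 for Scnn1b (0.0185) and Chadl for Scnn1g (0.141). For Atp1b1 it was Elac2 (0.0129), for Aqp1 Prok2 (0.0530) and for Aqp5 Myo1a (0.0168). For Cftr it was Aqp12a (0.0883), but the added 0.5 CPM shrinks the differences of so weak a gene, and the fitted changes were 10.8-fold for Aqp12a and 2.62-fold for Cftr. Chadl, Prok2 and Myo1a were also weak, at 6.53 CPM or less in every library, and their distances are shrunk in the same way. Aqp3 and Aqp4 had no tested gene, with or without an assigned symbol, within a distance of 0.2, whereas Atp1b1 had 1455. The nearest gene to Aqp3 was Arntl, which encodes a core factor of the circadian clock, at 0.411. It had 17.9 and 19.2 CPM in bleomycin lungs and 27.1 and 6.14 CPM in control lungs, with the low value in the same control as for Aqp3. The nearest gene to Aqp4 was Rpl30, a ribosomal protein gene, at 0.401.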

How the data were processed

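Counts were deposited by the authors as whole-number counts per gene without normalization, beside FPKM that the authors scaled to gene length and to each library's summed counts. The build Rnor_6.0 is named in the submitters' processing notes, which also list DESeq2, StringTie 1.3.1, HISAT2, fastp 0.18.0 and CASAVA 1.8, with settings not given in the sources used here. Per the labels' protocols poly(A) RNA was reverse transcribed with random primers.

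Counts were tested with edgeR 4.0.16 in R 4.3.3 (filterByExpr, minimum count 10 in 2 libraries; TMM scaling; quasi-likelihood fit with robust, bias-adjusted dispersion; group as the only term), which left 15709 genes. The SE is the log2 change divided by the square root of F. The script was tested on simulated data. DESeq2 1.42.0 was an alternative. P-values measure the spread between 2 rats a group, and replicates of a group differed by more than sampling noise.

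The 9 genes and all lists were chosen with earlier results of these data known. Named were the 9 genes, from each of 6 partner lists (74 genes) the called genes and the 2 with the smallest p, and each of the 9 genes' nearest gene. Of the partners 2 (Nr3c1 and Vipr1) and of 84 cell markers 8 were not found under their symbol. Some genes of these lists enter the counts and medians and are not reported here by name.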

Additional observations from a re-analysis of the deposited data

How the results depend on the processing

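Scnn1a, Scnn1b, Scnn1g, Aqp5 and Cftr kept their direction and their call under RLE factors, total counts only, no filter on low counts, DESeq2 and the replicate block. Leaving out a library gave 0 to 1 of the 9 genes higher and 0 to 5 lower, and 0 to 17 partner genes higher and 1 to 17 lower. Over all genes it gave 9 to 2750 higher and 6 to 2612 lower, against 1455 and 1223 with 4 libraries. The log2 change of Aqp3 ran from -0.31 without control replicate 2, where it reversed, to 2.13 without control replicate 1. With the replicate number as a block 1330 genes rose and 1100 fell. Same-numbered libraries deviated with a correlation of -0.0218 over the tested genes. This value alone cannot show whether the numbers pair rats, which the labels do not say. With the block, Aqp12a, Kcnn4, Slc26a3 and the neighbour Tnfrsf1a (edgeR adjusted p = 0.0557) were not called. DESeq2 called 1887 genes lower and 2136 higher, and 17 partner genes higher and 14 lower, against 9 and 8. Aqp12a gave no value without control replicate 2, where no control count was left. The causes were not tested. The smallest count among the 9 genes was 166, and an effect of depth on their calls was not tested.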
